A study of Homo sapiens with 17 samples.

Results

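The mitotic cyclins and the regulators of the anaphase-promoting complex form the subject here: 10 genes picked by symbol (CCNA2, CCNB1, CCNB2, CCNF, CDC20, CDC25B, CDC25C, FZR1, PTTG1 and UBE2C), all 10 of them found among 25548 symbols of the deposited expression table. RNA was sequenced from Jurkat cells, a long-established leukaemia line of human T cell origin, to look for the regulator behind the perturbation caused by ILT3.Fc. In this soluble protein the extracellular domains of ILT3, an inhibitory receptor encoded by LILRB4, are fused to an antibody Fc fragment. Cells received 25, 12.5 or 0 µg/ml for 6, 12 or 24 h, all in the same serum-containing medium, and the untreated groups had no ILT3.Fc and, as far as the labels say, no Fc control. There were 6 libraries at 25 µg/ml, 6 at 12.5 µg/ml and 5 untreated, with 2 in each group of dose and time except untreated 12 h, which had 1. Duplicates are not said to be separate cultures, and p-values therefore reflect spread among the libraries alone, which may be technical.

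Passage through mitosis depends on cyclin-dependent kinase 1, which acts only when bound to a cyclin. Cyclin A2 (CCNA2) serves S phase and early mitosis, cyclins B1 and B2 (CCNB1, CCNB2) drive mitotic entry, and the CDC25 phosphatases (CDC25B, CDC25C) remove the phosphates that hold the kinase inactive. The anaphase-promoting complex (APC/C), a ubiquitin ligase, then ends mitosis by marking cyclins and securin (PTTG1, which holds separase inactive) for destruction. CDC20 activates it in mitosis and FZR1 (also called CDH1) from late mitosis into G1. UBE2C is a ubiquitin-conjugating enzyme that works with it, and cyclin F (CCNF) is the substrate receptor of a separate SCF ubiquitin ligase. The messages of most of these genes are known to peak in G2 and mitosis in cycling cells.

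Depth could be recovered only in relative terms, and libraries reached at least 0.671 of the depth of the deepest one. All 12 markers of the T cell line had a mean FPKM (fragments per kilobase of transcript, scaled to the mapped total) of at least 1, and their summed level was 1758 to 1916 at 25 µg/ml and 1781 to 1872 FPKM in untreated cells. Of 14 markers of other cells, 2 reached that mean (CD79A and NKG7), and HBB and EPCAM were among those listed at 0 in every library, with summed levels of 43.4 to 46.8 at 25 µg/ml and 37.5 to 48.7 FPKM untreated. A pair of libraries stood apart. In replicate 1 of 12.5 µg/ml at 6 h, deviations from the other libraries went with transcript length across genes (Spearman rho -0.60), and in replicate 2 of 25 µg/ml at 24 h they went with GC content (rho 0.57). GC trends were not confined to that library. At 24 h rho was 0.14 and 0.57 with 25 µg/ml against 0.02 and -0.38 untreated. At 6 h it was -0.24 and -0.28 against 0.12 and 0.07 untreated, and at 12 h -0.33 and -0.16 against -0.12 untreated. Results with a correction for GC content and length are given below. Lane 4 held the 24 h libraries with the first replicates of 6 h, and lane 5 the 12 h libraries with the second replicates of 6 h.

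Promoter sequences are shown because 7 of the 10 genes moved together, and promoters of G2 and mitosis genes are known for a CHR element next to CCAAT boxes bound by NF-Y. RefSeq windows on GRCh38.p14, from 250 bases before a transcript start to 50 after it, were matched by symbol for 9 of the 10 genes, all but UBE2C (17 windows). Motifs searched on both strands were TTTGAA (CHR type), its variant TTTAAA, and CCAAT. The 110 bases before the start are printed 5′ to 3′ on the gene's strand, with matches in capitals (ATTGG is CCAAT on the other strand). Only window 1 of a gene is printed, and no window of CDC25B. Of the windows left out, 3 and 4 of CDC25C and 2 of FZR1 held none of these motifs. Window 2 of CDC25C and of PTTG1 held matches. CDC25B held CCAAT from -73 to -69 in window 3 (the start is position 0), and no match in window 1.
CCNA2, chr4:121823884-121823993, minus strand: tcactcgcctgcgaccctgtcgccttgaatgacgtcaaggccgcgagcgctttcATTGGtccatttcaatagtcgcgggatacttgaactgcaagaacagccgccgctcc
CCNB1, chr5:69167040-69167149, plus strand: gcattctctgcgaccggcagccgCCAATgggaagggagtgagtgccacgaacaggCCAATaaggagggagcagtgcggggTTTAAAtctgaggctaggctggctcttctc
CCNB2, chr15:59105036-59105145, plus strand: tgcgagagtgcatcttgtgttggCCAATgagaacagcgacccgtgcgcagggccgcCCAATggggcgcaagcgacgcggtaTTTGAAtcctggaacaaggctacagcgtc
CCNF, chr16:2429337-2429446, plus strand: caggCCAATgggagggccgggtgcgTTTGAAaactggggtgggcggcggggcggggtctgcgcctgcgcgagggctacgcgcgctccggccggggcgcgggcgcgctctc
CDC20, chr1:43358871-43358980, plus strand: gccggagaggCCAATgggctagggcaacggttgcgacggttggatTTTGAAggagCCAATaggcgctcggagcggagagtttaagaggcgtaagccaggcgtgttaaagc
PTTG1, chr5:160421745-160421854, plus strand: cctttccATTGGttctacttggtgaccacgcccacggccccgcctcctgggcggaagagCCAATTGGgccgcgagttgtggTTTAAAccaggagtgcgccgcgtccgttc
CDC25C, chr5:138331805-138331914, minus strand: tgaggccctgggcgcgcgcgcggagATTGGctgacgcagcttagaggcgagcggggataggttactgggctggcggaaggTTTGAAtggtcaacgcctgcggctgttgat
FZR1, chr19:3506201-3506310, plus strand: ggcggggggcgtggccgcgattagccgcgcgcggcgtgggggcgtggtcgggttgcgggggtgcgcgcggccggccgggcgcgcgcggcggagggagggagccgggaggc

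CCAAT was found in the windows of CCNA2 (1 match), CCNB1 (2), CCNB2 (4), CCNF (4), CDC20 (2) and PTTG1 (3). The 2 windows of PTTG1 overlap and hold the same 3 sites, of which 1 pair overlaps on opposite strands. CCAAT was in 2 of 4 windows of CDC25B, 2 of 4 of CDC25C and none of the 2 of FZR1. Of all 35116 windows in the table, 34.6% held at least 1 CCAAT and 10.8% at least 2. TTTGAA lay in the windows of CCNB2, CCNF, CDC20 (2 matches) and in 2 overlapping windows of CDC25C that hold the same site, and in 1 window of FZR1 at position -226, outside the printed stretch (the start is position 0). The variant TTTAAA, which reads alike on both strands, lay in the windows of CCNB1, CCNB2, PTTG1 and 1 of CDC25B. TTTGAA was in 15.2% of all windows, TTTAAA in 12.2%, and TTTGAA together with CCAAT in 5.90%, and here the windows of CCNB2, CCNF, CDC20 and 2 of CDC25C held both. A match describes these letters only. The CCNA2 window held neither hexamer, and other forms of the CHR element were not searched for, so a site of another form is not excluded.

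**Figure D1:**
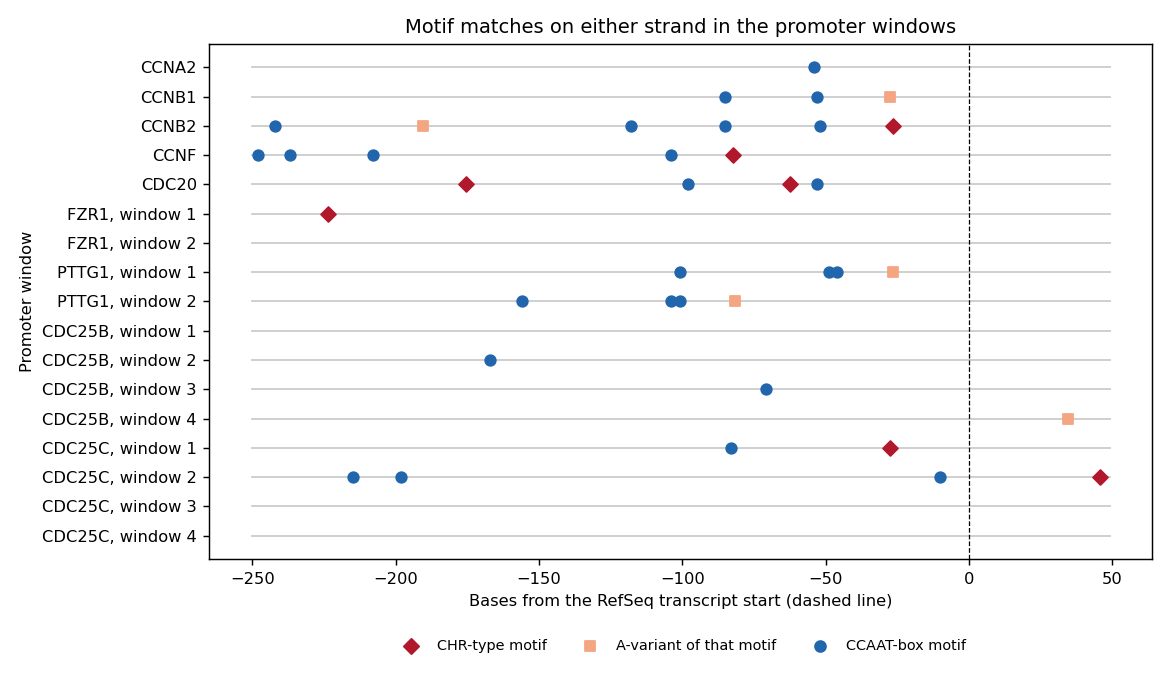
Positions of the 3 motifs (points, either strand) in the 17 RefSeq promoter windows of 9 genes, in bases from the transcript start (horizontal axis). CCAAT matches of CCNA2, CCNB1, CCNB2, CDC20 and PTTG1 (window 1) recur close to 50 bases before the start. The nearest of CCNF lies from -106 to -102 and that of CDC25C (window 1) from -85 to -81. FZR1 windows hold no CCAAT.

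Exposure to 25 µg/ml was set against untreated cells over the 3 times to ask which of these messages followed ILT3.Fc. The A and B cyclins, cyclin F, CDC20, UBE2C and securin fell, while FZR1, CDC25B and CDC25C did not pass the test. Thus 7 of the 10 genes were called lower and none higher by limma at an adjusted p under 0.05, against 4% lower (9.47% in either direction) of the 12015 genes tested. The median change over the 10 was -0.24 on the log2(FPKM + 1) scale, against 0.02 over all genes tested. Whether a lower message level comes from fewer cells in mitosis or from less RNA per cell cannot be told apart in bulk RNA. The genes were chosen with earlier results of these data known.

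**Figure D2:**
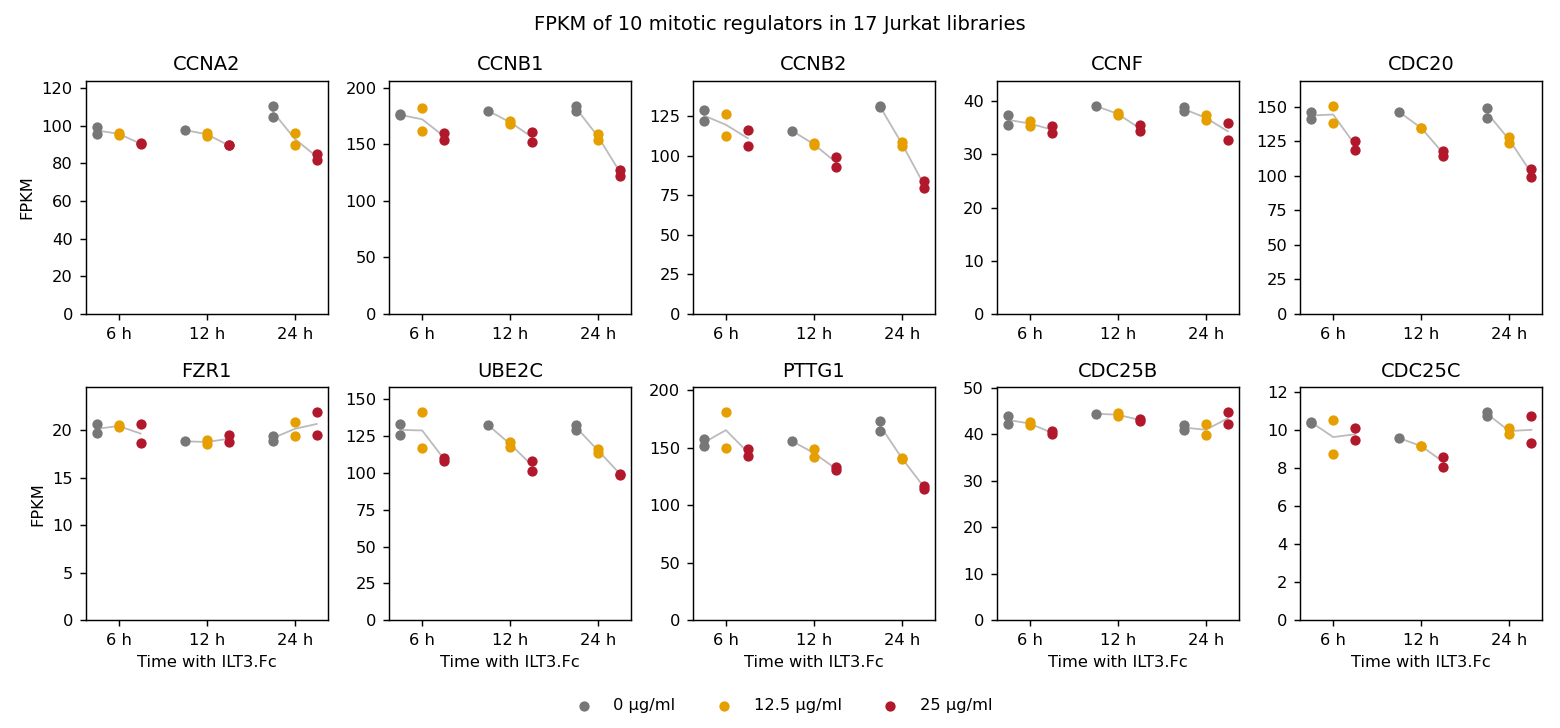
FPKM (vertical axes, from 0) of the 10 genes in each of 17 libraries (points) at 0, 12.5 and 25 µg/ml and 6, 12 and 24 h, with lines joining group means. At 24 h the CCNB2 points descend with dose without overlap, and the FZR1 and CDC25B points do not.

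Among the cyclins, CCNB2 changed most. At 24 h it stood at 83.7 and 79.3 FPKM with 25 µg/ml, against 130.5 and 131.3 FPKM in untreated cells. At 12 h the values were 92.6 and 98.8 with 25 µg/ml, against 115.7 FPKM in the single untreated library, and at 6 h 115.9 and 106.0 with 25 µg/ml, against 121.9 and 128.7 FPKM untreated. Treated libraries were below untreated ones at each time, although the highest treated value (6 h) reached above the untreated 12 h library. Over the 3 times the log2 level of CCNB2 fell by 0.38 (SE 0.038; limma adjusted p = 3.34e-04).

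CCNB1, the most abundant of the 10, had 127.0 and 122.5 FPKM at 24 h with 25 µg/ml, against 179.2 and 184.1 FPKM untreated. At 12 h it had 152.0 and 160.7 with 25 µg/ml against 179.8 FPKM untreated, and at 6 h 159.8 and 154.3 against 175.8 and 176.6 FPKM untreated. All 6 treated libraries lay below all 5 untreated ones. It fell by 0.30 (SE 0.033, limma adjusted p = 5.08e-04).

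CCNA2 had 85.1 and 82.0 FPKM at 24 h with 25 µg/ml, against 104.6 and 110.4 FPKM untreated. Over all times its lowest, median and highest values were 82.0, 89.5 and 90.8 at 25 µg/ml, and in untreated cells it ran from 95.5 to 110.4 FPKM with a median of 99.4. The groups did not overlap, and CCNA2 fell by 0.20 (SE 0.026, limma adjusted p = 0.00142). CCNF, at 32.7 and 36.0 FPKM at 24 h with 25 µg/ml against 38.9 and 38.2 FPKM untreated, showed the smallest called change (-0.13, SE 0.029, adjusted p = 0.0197). Over all times its ranges overlapped, 32.7 to 36.0 FPKM at 25 µg/ml and 35.6 to 39.1 FPKM untreated. The call of CCNF was lost without untreated 6 h replicate 1, 25 µg/ml 6 h replicate 1, untreated 12 h replicate 1, 25 µg/ml 12 h replicate 2 or untreated 24 h replicate 1, and without the 12 h libraries together.

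The mitotic APC/C activator CDC20 fell and the later activator FZR1 did not pass. CDC20 had 98.8 and 105.1 FPKM at 24 h with 25 µg/ml against 148.9 and 141.6 FPKM untreated, 114.5 and 117.8 at 12 h against 146.0 FPKM untreated, and 125.3 and 119.0 at 6 h against 145.9 and 141.3 FPKM untreated. Every treated library was below every untreated one, and CDC20 had the smallest p of the 10 genes (fell by 0.36, SE 0.031, limma adjusted p = 1.67e-04). FZR1 ran from 18.6 to 21.8 FPKM at 25 µg/ml (median 19.4) and from 18.8 to 20.6 FPKM untreated (median 19.4), with complete overlap. Its value was 0.03 (SE 0.039, adjusted p = 0.712), and from -0.06 to 0.08 under 34 alternatives, with a sign that changed in 4 of them and no call in any.

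UBE2C, the E2 partner, had 98.4 and 99.3 FPKM at 24 h with 25 µg/ml against 128.6 and 132.3 FPKM untreated. It ran from 98.4 to 109.8 FPKM over all times at 25 µg/ml (median 104.8) and from 125.3 to 132.8 FPKM untreated (median 132.2), with no overlap. UBE2C fell by 0.32 (SE 0.044, limma adjusted p = 0.00181). Securin, PTTG1, had 117.2 and 114.4 FPKM at 24 h with 25 µg/ml against 165.1 and 173.7 FPKM untreated, and over all times 114.4 to 148.8 FPKM at 25 µg/ml against 151.4 to 173.7 FPKM untreated. It fell by 0.29 (SE 0.043, adjusted p = 0.00293). Near-identical copies could share its reads: PTTG3P had a median of 5.94 and PTTG2 of 0.134 FPKM. How far shared reads alter the PTTG1 values was not tested.

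The CDC25 phosphatases did not pass. CDC25B ran from 40.0 to 44.7 FPKM at 25 µg/ml and from 40.9 to 44.4 FPKM untreated, with a value of -0.02 (SE 0.025, limma adjusted p = 0.618). CDC25C, the least abundant of the 10, ran from 8.08 to 10.7 FPKM at 25 µg/ml and from 9.57 to 10.9 FPKM untreated, at -0.12 (SE 0.050, adjusted p = 0.145). CDC25C was called lower without replicate 1 of 12.5 µg/ml at 6 h (adjusted p = 0.0472), without replicate 2 of that group, and without both libraries that stood apart (-0.15, adjusted p = 0.0102).

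**Figure D3:**
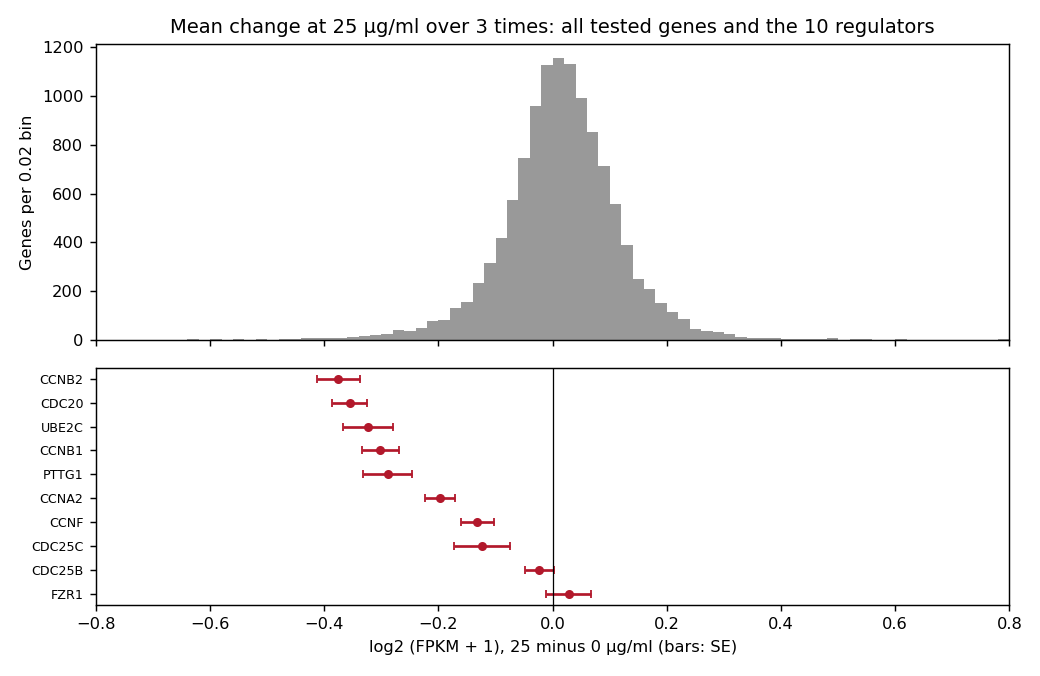
Mean log2(FPKM + 1) change at 25 against 0 µg/ml over 3 times, for 12015 tested genes (upper panel, histogram in bins of 0.02, with 73 genes beyond 0.8 not drawn) and for the 10 genes with SE (lower panel). CCNB2 and CDC20 lie lowest, and FZR1 lies near the centre of the histogram.

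These calls rested partly on the 24 h libraries and on both lanes together. Without the 24 h libraries CDC20 alone passed (-0.28, limma adjusted p = 0.0455), and CCNA2 stood at -0.12, CCNB1 at -0.18, CCNB2 at -0.22 and PTTG1 at -0.16, values over 1.5 times smaller. In lane 4 alone 4 of the 10 were called, CCNB1 (-0.34), CCNB2 (-0.38), CDC20 (-0.36) and UBE2C (-0.33), while PTTG1 was at -0.28 (adjusted p = 0.0502). In lane 5 alone, which has no 24 h library, none passed and the 7 stood between -0.29 (CDC20) and -0.08 (CCNF). All 7 values were negative in both lanes. Each lane alone holds a single library in every 6 h group, so these fits have less power, and a lost call need not mean a smaller change.

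The level at the start gives scale to these changes. In untreated cells FPKM, which is per length, averaged 179.1 ± 3.25 for CCNB1, 160.8 ± 8.76 for PTTG1, 144.7 ± 3.23 for CDC20, 130.2 ± 3.24 for UBE2C, 125.6 ± 6.65 for CCNB2 and 101.5 ± 6.01 for CCNA2 (SD, n = 5). CDC25B (42.7 ± 1.47), CCNF (37.9 ± 1.42), FZR1 (19.5 ± 0.718) and CDC25C (10.4 ± 0.517) followed (SD, n = 5). Of neighbours in this order, UBE2C and CCNB2 overlapped in range and all other neighbours did not.

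To see when these differences arose, treated and untreated cells were compared within each time. At 24 h the same 7 genes fell, against 5.76% of all genes called lower at that time and 16.5% in either direction. CCNB2 fell by 0.68 (SE 0.061, limma adjusted p = 1.73e-04), PTTG1 by 0.54, CCNB1 by 0.54, CDC20 by 0.51, UBE2C by 0.40, CCNA2 by 0.36 and CCNF by 0.16 (adjusted p = 0.0386). In mean FPKM, CCNB2 fell by 37.8% and CCNA2 by 22.3%. FZR1 and CDC25B were higher in both treated libraries than in both untreated ones at 24 h without passing (0.10 and 0.06, adjusted p = 0.295 and 0.303). With the correction for GC content and length both values turned negative (FZR1 -0.08, CDC25B -0.07), and without 25 µg/ml 24 h replicate 2, the library whose deviations went with GC content, they were 0.02 each. CCNF lost its call under 16 of 30 alternatives at 24 h, and UBE2C lost it without untreated 24 h replicate 2. Fitted on the 4 libraries compared, without the shared estimate of spread, CCNB2 alone passed. Markers of cell identity also differed at 24 h. Of the 12 T cell line markers LAT (0.28, limma adjusted p = 0.00571) and CD28 (0.24) rose and PTCRA (-0.45) and RAG1 (-0.32) fell, and of the 2 tested markers of other cells NKG7 rose (0.49, adjusted p = 0.0341) and CD79A stood at 0.17 (adjusted p = 0.0772). Their part in the changes of the 10 genes was not tested.

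At 6 and 12 h no member was called, against 0.225% of all genes in either direction (0.166% lower) at 6 h and 0.0499% (0.0166% lower) at 12 h. Of all genes, 1239 at 6 h and 1034 at 12 h had an unadjusted p under 0.05. Treated libraries nevertheless lay below untreated ones for 9 of the 10 genes at 6 h and 9 at 12 h, FZR1 being the exception both times, where 25.9% and 32.7% of all genes did so. At 24 h 8 of 10 did, against 23.1%, and over all times together 5 of 10 (CCNA2, CCNB1, CDC20, PTTG1 and UBE2C), against 2.31%. At 6 h the largest values were those of UBE2C (-0.24, limma adjusted p = 0.270) and CDC20 (-0.23, adjusted p = 0.128), and at 12 h UBE2C (-0.33, adjusted p = 0.265) and CDC20 (-0.33, adjusted p = 0.119). CDC20 and UBE2C passed at both times when either 12.5 µg/ml library of 6 h was left out of the shared estimate of spread.

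**Figure D4:**
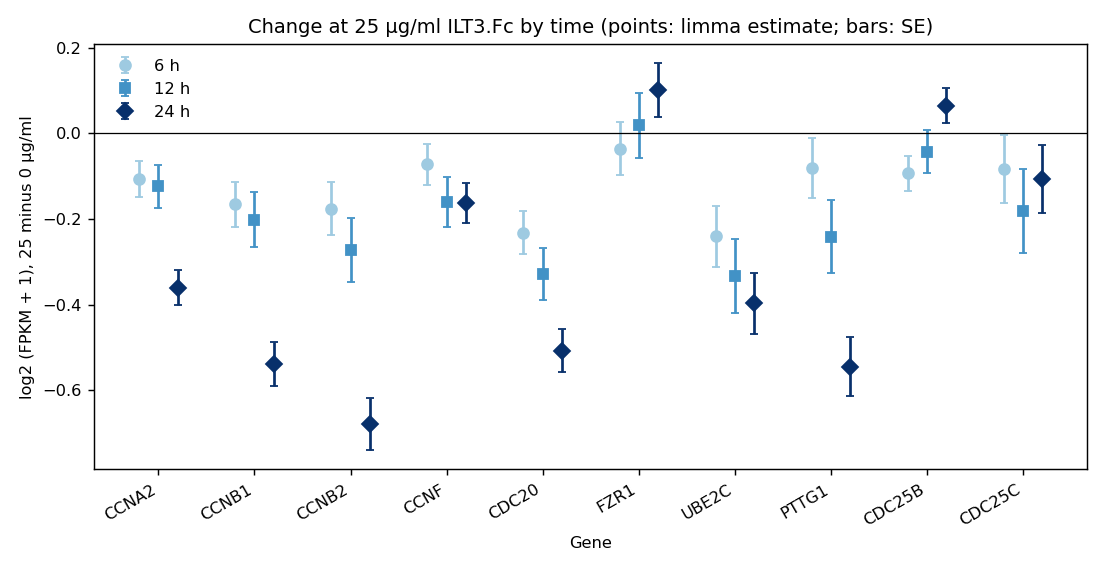
limma estimates of the change in log2(FPKM + 1), 25 minus 0 µg/ml (vertical axis; bars are SE), for each gene at 6, 12 and 24 h. CCNB2, PTTG1, CCNB1 and CCNA2 lie much lower at 24 h than at 6 h, and UBE2C lies between -0.24 at 6 h and -0.40 at 24 h.

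The growth of the effect with time was itself tested, as the 24 h effect minus the 6 h effect. It was more negative at 24 h for CCNB2 (-0.50, SE 0.086, limma adjusted p = 0.0172), PTTG1 (-0.46, SE 0.098, adjusted p = 0.0341), CCNB1 (-0.37, SE 0.074, adjusted p = 0.0266) and CCNA2 (-0.25, SE 0.058, adjusted p = 0.0448). These 4 of 10 compare with 0.949% of all genes called in that direction and 3.30% in either. CDC20 (-0.28, adjusted p = 0.0606), UBE2C (-0.16, adjusted p = 0.396) and CCNF (-0.09, adjusted p = 0.463) did not pass. None of the 4 passed without untreated 24 h replicate 2, 25 µg/ml 24 h replicate 2, either untreated 6 h library or either 25 µg/ml 6 h library. 2 of them passed without untreated 24 h replicate 1, without any 12 h library of 12.5 or 25 µg/ml, or with no filter on low values. In lane 4 alone none passed, and CCNA2 was also lost without both libraries that stood apart, without the variance trend and with only the groups compared.

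The same genes were followed from 6 to 24 h within a dose. At 25 µg/ml CCNB2 fell by 0.44 (SE 0.061, limma adjusted p = 0.00137), PTTG1 and CCNB1 each by 0.33, and CDC20 by 0.26 (adjusted p = 0.0061), 4 of 10 against 7.32% of all genes called lower and 19.1% in either direction. In untreated cells none of the 10 was called between these times, against 2.33% of all genes in either direction and 1.77% lower (2248 at an unadjusted p under 0.05). The untreated values of CCNA2 (0.14, adjusted p = 0.10) and PTTG1 (0.13, adjusted p = 0.344) were positive. All 24 h libraries ran in lane 4 and 6 h libraries in both lanes, and in lane 4 alone only CCNB2 passed at 25 µg/ml.

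Dose was compared next. At 24 h, 7 of the 10 genes descended from 0 over 12.5 to 25 µg/ml with no overlap of the duplicates, against 6.85% of all genes. At 12 h, where the untreated group is a single library, 8 descended without overlap, against 6.62%. Over all times together none did, against 0.0166%. The mean of CCNB2 at 24 h was 130.9 ± 0.595 FPKM without ILT3.Fc, then 107.3 ± 1.79 with 12.5 and 81.5 ± 3.08 with 25 µg/ml (SD, n = 2 each). For CCNB1 the means were 181.6 ± 3.44 FPKM without ILT3.Fc, then 156.6 ± 3.78 with 12.5 and 124.8 ± 3.20 with 25 µg/ml (SD, n = 2 each). At 6 h none of the 10 descended in this way, against 1.81% of all genes, and replicate 1 of 12.5 µg/ml at 6 h, which stood apart with gene length, held the highest PTTG1 (180.9), UBE2C (140.8) and CDC20 (150.5 FPKM) values of all 17 libraries. The part of that library's length trend in these values was not tested.

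For 12.5 µg/ml against untreated cells over all times no member was called, against 0.283% of all genes in either direction and 0.117% lower (1315 of which had an unadjusted p under 0.05). 9 of 10 values were negative, from -0.16 for CCNB2 (SE 0.038, limma adjusted p = 0.143) to -0.02 for CDC25B. Without replicate 1 of 12.5 µg/ml at 6 h CCNB1, CCNB2, PTTG1 and UBE2C passed, and without replicate 2 CCNB2 did. After correction of each library for GC content and length CCNA2, CCNB1, CCNB2, CDC20, PTTG1 and UBE2C passed. For 25 against 12.5 µg/ml CDC20 (-0.25, SE 0.029, adjusted p = 0.00558), CCNB1 (-0.19, adjusted p = 0.0298) and CCNB2 (-0.22, adjusted p = 0.0305) fell, 3 of 10 against 0.216% of all genes called lower. Without any 1 of 14 libraries CDC20 alone passed. CDC20 in turn did not pass without the 24 h libraries, without the 12 h libraries or in either lane alone, and in lane 4 UBE2C (-0.28, adjusted p = 0.0436) was the gene that passed. The exceptions among libraries were untreated 12 h replicate 1, without which these 3 passed, and the 12.5 µg/ml 6 h replicates, without which 5 (replicate 1) or 6 (replicate 2) did.

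Ratios between paired members asked whether 1 changed more than the other. The ratio of CDC20 to FZR1 was 5.08 and 4.81 at 24 h with 25 µg/ml and 7.68 and 7.50 untreated. Over all times it ran from 4.81 to 6.39 at 25 µg/ml and from 6.86 to 7.76 untreated, with no overlap. The mean log2 difference was -0.38 (exact permutation test within times, two-sided, p = 0.00926, the smallest that 108 arrangements allow, and adjusted p = 0.037 over 4 pairs). CCNB1 to CCNB2 changed by 0.07 and CCNA2 to CCNB1 by 0.10, CCNB2 falling more than CCNB1 and CCNB1 more than CCNA2 (exact permutation test, adjusted p = 0.0494 each). The CCNB1 to CCNB2 ratio ran from 1.38 to 1.64 at 25 µg/ml and from 1.37 to 1.55 untreated, so that its ranges overlapped across times. It overlapped within 6 h as well, at 1.38 and 1.46 with 25 µg/ml against 1.44 and 1.37 untreated. The CCNA2 to CCNB1 ratio also overlapped across times, from 0.557 to 0.670 at 25 µg/ml and from 0.543 to 0.600 untreated. CDC25B to CDC25C did not pass (0.10, adjusted p = 0.0556). Leaving out the 12 h or the 24 h libraries ended each of the 3 calls, but no call was possible there. The smallest two-sided p that the remaining arrangements of this exact permutation test allow is 0.0556 in both cases. The same holds without the untreated 12 h library, which leaves no comparison at 12 h. All 3 calls were also lost without untreated 6 h replicate 2 or either 25 µg/ml 12 h library. There CDC20 to FZR1 stayed at the smallest p allowed. CCNB1 to CCNB2 was also lost without 25 µg/ml 6 h replicate 2. For CDC20 to FZR1 the exact permutation adjusted p without single libraries ran from 0.037 to 0.111.

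**Figure D5:**
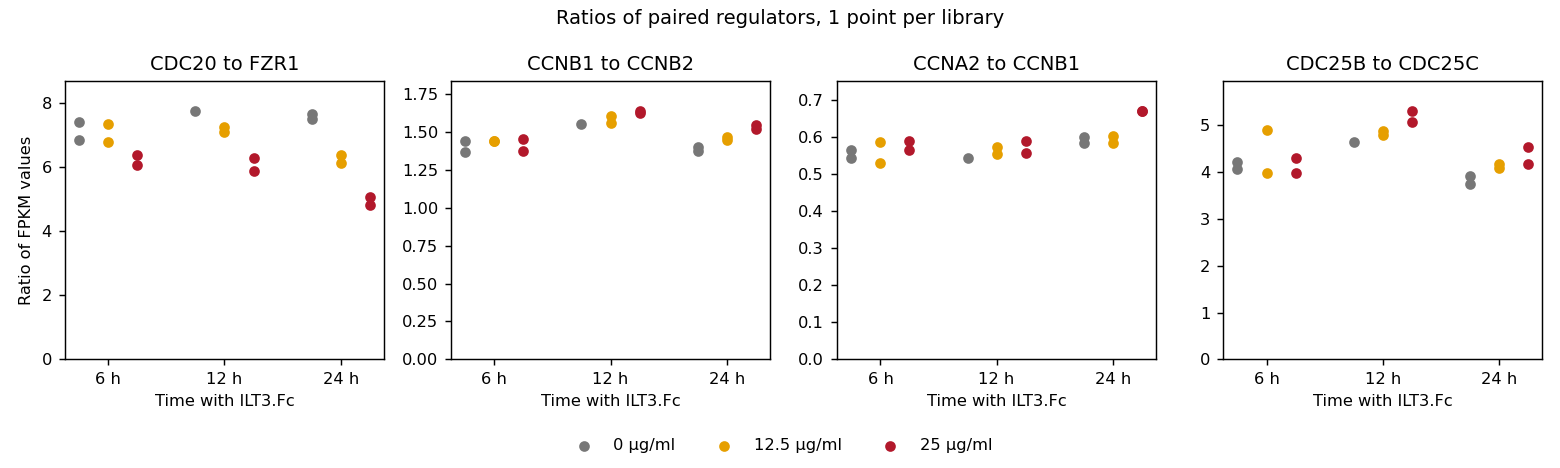
Ratio of FPKM values (vertical axes, from 0) for 4 pairs of genes in each library (points), by dose and time. The CDC20 to FZR1 ratio lies between 4.81 and 6.39 in all libraries at 25 µg/ml and between 6.86 and 7.76 in untreated ones.

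GC content of the longest GENCODE v29 transcript overlapped between the genes that fell and those that did not pass. Of the genes that did not pass, FZR1 has 64.0%, CDC25B 59.3% and CDC25C 47.6% GC. Of those that fell, CCNA2 has 42.1%, CCNB1 43.2%, CCNB2 44.3%, PTTG1 49.3%, UBE2C 50%, CCNF 57.6% and CDC20 57.9%. With each library corrected for GC content and length, the same 7 genes were called for 25 µg/ml over all times, CCNB2 at -0.38 and CCNF at -0.17, and FZR1 stood at -0.01 and CDC25B at -0.06 (limma adjusted p = 0.863 and 0.0873). Without both libraries that stood apart CCNB2 was at -0.36, CDC20 at -0.37 and FZR1 at 0.0011.

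The rest of the pathway was read from lists chosen, like the 10 genes, with earlier results known. Of 13 tested subunits of the APC/C itself, none was called for 25 µg/ml over all times, with a median of 0.01. Of all genes tested 9.47% were called in either direction, a share at which a list this short can hold none. The smallest p were those of CDC26 (0.14, limma adjusted p = 0.0682), ANAPC1 (-0.14, adjusted p = 0.130) and ANAPC13 (0.10, adjusted p = 0.143). Among 11 partner enzymes, inhibitors and spindle checkpoint genes 4 fell and none rose, where 4% of all genes tested fell (9.47% changed in either direction). BUB1B (-0.17, adjusted p = 0.00182), a checkpoint inhibitor of CDC20, and the checkpoint kinases BUB1 (-0.11, adjusted p = 0.0156) and TTK (-0.16) fell, as did UBE2S (-0.25, adjusted p = 0.0355), the E2 that extends chains begun by UBE2C. The APC/C inhibitor FBXO5 stood at -0.11 (adjusted p = 0.0918) and the checkpoint protein MAD2L1 at -0.10 (adjusted p = 0.0989).

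Of 10 tested genes that act on the cyclin-dependent kinase, 2 fell, against 4% of all genes tested. These were CDK1, the kinase itself (-0.11, limma adjusted p = 0.026), and WEE1, the kinase that inhibits it (-0.16, adjusted p = 0.00738). CDC25A, the third CDC25 phosphatase, was at 0.01 (adjusted p = 0.768), and CKS2, a small partner of CDK1, at -0.13 (adjusted p = 0.110). The germ-line cyclins CCNA1 and CCNB3 had mean FPKM of 0.0318 and 0.406 and were not tested. Of 11 separase and cohesin genes 3 fell, again against 4% of all genes: separase, ESPL1 (-0.22, adjusted p = 0.00601), PDS5B (-0.17) and STAG1 (-0.16). Of 13 other APC/C substrates 7 fell, led by PLK1 (-0.44), TPX2 (-0.23) and NUSAP1 (-0.22), and none rose, against the same 4% lower of all genes. None of 6 genes that control the mitotic exit phosphatase was called, where 9.47% of all genes tested were called in either direction. The smallest p were those of ENSA (0.04), ARPP19 (-0.04) and the kinase MASTL (0.03, limma adjusted p = 0.645). None of 4 genes linked to the cyclin F ligase was called either, against the same 9.47%. RBX1 (-0.08, limma adjusted p = 0.348), SKP1 and CCP110 had the smallest p. Lists this short can hold no called gene at that share.

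By likeness to the average pattern of the 10 genes over 17 libraries, each gene standardised, the nearest of 9315 other genes were CDKN3 (Pearson r = 0.943), PLK1 (0.917), CENPA (0.911), CDCA3 (0.906) and STX10 (0.901). CDKN3, a phosphatase of cyclin-dependent kinases, had 63.2 and 63.6 FPKM at 24 h with 25 µg/ml against 86.3 and 89.6 FPKM untreated. The correlations describe these libraries, which share lanes and doses. Among the 10 themselves, CDC20 (0.962) and UBE2C (0.955) were nearest to the average that includes them, and CDC25B (0.063) and FZR1 (-0.017) were farthest from it.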

How the data were processed

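The authors deposited 1 table of FPKM values with a column for each of 17 libraries. The submitters' processing notes name TopHat2 2.1.0; no source used here gives the quantifier, genome build or gene models. Per the labels' protocols, RNA was purified with an RNeasy kit and polyadenylated RNA went into TruSeq libraries. Of 25593 lines, the one with the highest mean was kept for each of 45 repeated symbols. The absolute depth is unknown; relative depth came from the value of 1 fragment in genes with a mean FPKM below 0.3 (tolerance 0.03 on the log2 scale).

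The 12015 genes whose FPKM averaged 1 or more were tested on log2(FPKM + 1), a scale that understates changes of low genes. limma 3.58.1 (R 4.3.3) fitted 9 group means with a variance trend (8 residual and 3 prior degrees of freedom), two-sided, with Benjamini-Hochberg adjustment over all genes tested and calls at 0.05. The single untreated 12 h library was assumed to vary like other groups. Ratios were tested by exact permutation within times. Alternatives covered the pseudocount, filters, scaling, a loess correction (span 0.3) for GC content and length from GENCODE v29 (85.0% of genes matched), lane, replicate number, models, times and single libraries. The fit that leaves out both libraries that stood apart was added after seeing the data. Members and lists were chosen with earlier results of these data known; all 10 members are named, and of each list up to 3 genes with the smallest p plus fixed candidates. The tests were checked on simulated data, with a planted change larger than the mean change over 3 times of any of the 10 genes. Recovery of smaller changes was not checked. Promoter sequences are RefSeq's (GRCh38.p14). A marker of other cells is not reported here by name.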

Additional observations from a re-analysis of the deposited data

Results flagged for a closer look

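The effect of 25 µg/ml differed between 24 and 6 h, by an interaction test in limma, for 4 of the 10 genes. The 24 h effect minus the 6 h effect was -0.50 for CCNB2, -0.46 for PTTG1, -0.37 for CCNB1 and -0.25 for CCNA2 on the log2 scale. All 4 were lower in both 24 h treated libraries than in both untreated ones, and the same was so at 6 h. The interaction calls depended on single libraries and on both lanes together, as given above. Groups of 1 or 2 libraries are too small to test single libraries as outliers.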

How the results depend on the processing

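No absolute depth can be had from FPKM, so no counting interval is given. For 25 µg/ml over all times, 7 genes were called, against 4 in lane 4, 0 in lane 5 and 1 without the 24 h libraries, and 6 to 8 without single libraries. At 6 h 0 became 1 with quantile normalization, 3 with the GC content and length correction, 2 with that correction and the replicate block, and 2 without both libraries that stood apart; single libraries gave 0 to 2. At 12 h the same settings gave 1, 5, 2 and 2, and single libraries 0 to 2. At 24 h 7 became 1 (CCNB2) when only the groups compared were fitted (4 libraries), and 5 to 7 without single libraries. For 12.5 µg/ml 0 became 3 (quantile), 6 (correction), 6 (correction with block) and 4 (without both libraries), and 0 to 4 without single libraries. For 25 against 12.5 µg/ml 3 became 5, 6 and 6 with quantile normalization, correction and correction with block. It became 1 (UBE2C) in lane 4, 1 (CDC20) with the replicate block, the additive model or only the groups compared, and 0 in lane 5 and without the 24 h or the 12 h libraries, with 1 to 6 without single libraries. Between 24 and 6 h untreated, 0 became 2 with correction and 1 with correction and block, and stayed 0 without any single library. These calls, of CCNA2 and PTTG1, were of higher values at 24 h, and none was lower. At 25 µg/ml 4 became 1 in lane 4 and 0 with only the groups compared, and 3 to 5 without single libraries. For the interaction 4 became 2 without a filter, 7 with correction and 0 in lane 4, and 0 to 5 without single libraries. The cause was not tested.

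Replicate numbers do not pair the libraries (correlations of deviations -0.18 to 0.13 over 28 pairs of groups, 2 above 0.1). Beyond the counts above, the replicate block ended the call of CCNF at 24 h and of CCNA2 in the interaction. The ratio of CDC20 to FZR1 was -0.27 without 24 h, -0.40 without 12 h and -0.40 within replicate pairs. That of CCNB1 to CCNB2 was 0.041, 0.075 and 0.075, and that of CCNA2 to CCNB1 0.068, 0.12 and 0.12. None passed the exact permutation test, and none could. The smallest p it allows is 0.0556 without 24 h or without 12 h, and 0.0625 in the pairs. Single libraries gave -0.40 to -0.37, 0.061 to 0.087 and 0.091 to 0.12, and 0.080 to 0.12 for CDC25B to CDC25C. No called value of a single gene changed sign.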
